A study of Homo sapiens and Mus musculus with 12 samples.

Results

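The transcriptome described here is that of WT human cortical organoids at week 4 of differentiation, read from 3 libraries of the 12 in the series. The 3 libraries were chosen by their label alone: they are the WT replicates of the H9 line, and every gene of the count table was kept. The series compared human organoids with and without NOTCH2NL at week 4, and mouse organoids with and without an added human NOTCH2NL gene. It holds 4 groups, and the knockout and mouse groups are not analysed here.

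H9 is an established human embryonic stem cell line, here kept on feeder layers of mitomycin-treated mouse embryonic fibroblasts. All 3 libraries carry the line code H9_WT_E2del19, which the labels do not explain, so they come from 1 coded line and possibly from 1 clone of gene-edited control cells. Colonies were lifted to form embryoid bodies and received SB431542, an inhibitor of TGF-beta and Nodal receptors, dorsomorphin at 1 µM, an inhibitor of BMP receptors, IWR-1-Endo at 3 µM, an inhibitor of WNT signalling, and cyclopamine at 1 µM, an inhibitor of Hedgehog signalling. Neurobasal/N2 medium was used from day 18 and cyclopamine was omitted from day 24. Each library was made from a pool of 5 to 10 organoids harvested on day 28. Nothing in the labels shows whether the pools were grown as separate cultures, so the spread between them may in part be technical.

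Cortical organoids are aggregates of stem cells that follow the steps of early forebrain development. A neural epithelium forms first, its radial glia divide at an inner lumen, and neurons leave them by way of proneural transcription factors and Notch signalling. Position along the neural tube is set by gradients of signals, with EMX genes marking the dorsal telencephalon, WNT and BMP ligands marking its medial edge, the cortical hem and the choroid plexus, and HOX genes marking the hindbrain and spinal cord.

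Polyadenylated RNA was selected and the library kit keeps strand and was made for Ion sequencers. The pools held 15514521, 16382938 and 15558342 counts over 60675 gene identifiers. Levels are CPM, counts divided by the library's count in units of 1000000 and scaled by TMM factors, which are between 0.978 and 1.02, and values are given in the order of pools 1, 2 and 3. A count of 0 allows a level of up to 0.192, 0.180 and 0.197 CPM, from 3 counts, which covers counting error only. CPM does not correct for length, so where genes are ordered by CPM the order holds on that scale alone, and levels of different genes are compared as CPM per kb of exon. In bulk RNA, fewer cells of a type and less RNA per cell cannot be told apart.

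A gene is called present when it reached 1 CPM in each of the 3 pools, and not detected when it had at most 3 counts in each. By that rule 14865 genes were present, which is 24.5% of all identifiers, 7013 were low and 38797 were not detected. Among 19693 protein-coding genes 12871 were present, or 65.4%, and 4612 were not detected. The 65.4% is the background for the counts of protein-coding list members present below. Of 14330 long noncoding genes 1171 were present. The 3 pools were similar across all genes, with a Pearson correlation of log2(CPM + 0.5) across genes of 0.978 for pools 1 and 2, 0.985 for pools 1 and 3 and 0.991 for pools 2 and 3. No 2 pools agreed within counting error, since the chi-square per degree of freedom between pools was 22.6, 13.7 and 7.84 in the same order, so all 3 were kept as separate samples. Pool 1 stood apart from the other 2. Which library is pool 1 depends on the table: in the authors' deposited normalized values, the column labelled replicate 1 is a scaled copy of the raw counts of replicate 3, within 1 count for 100.0% of genes against 1.35% for its own number, and the column labelled replicate 3 is one of replicate 1, with 99.9% against 1.4%. Pool numbers here follow the raw counts, and for replicates 1 and 3 the tables go against each other.

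A gene is called differing between pools when its 3 counts departed from the scaled library sizes by Pearson's chi-square test, at a Benjamini-Hochberg adjusted p under 0.05 over all genes with a mean of at least 1 CPM, and its highest pool was at least 2-fold its lowest. The test sets these libraries against counting error only, and it has no condition to compare. Of 15658 genes tested, 8562 (54.7%) departed from counting error and 1158 (7.40%) were differing. These shares are the background for the counts of members below. They are shares of genes tested, whereas lists are counted over all members, and members under a mean of 1 CPM were not tested. The share differing also fell with level, from 21.5% at 1 to 5 CPM to 1.46% from 100 CPM. The share of 7.40% is thus too low a background for members near 1 CPM, and a list's share near it is no trait of that list. Where leaving out a pool moved a list's count of differing genes by more than 1.5-fold, the count with that pool left out stands in parentheses, and it then compares 2 pools. The share over all genes is then lower too, at 1.49% without pool 1, 3.50% without pool 2 and 6.14% without pool 3. A lower count in parentheses is therefore no trait of a list by itself.

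By CPM, the most abundant transcripts were those of the mitochondrial genome, the cytoskeleton and the translation machinery. MT-CO1, a subunit of the mitochondrial cytochrome oxidase, was at 11521, 11915 and 13174 CPM. It was highest in pool 3, as were all 13 protein-coding genes of the mitochondrial chromosome (12 of the 13 when scaled by library size alone), and all 13 were lowest in pool 1. Transcripts of that chromosome made up 4.96%, 5.21% and 5.59% of all counts. MT-RNR2, the large mitochondrial ribosomal RNA, was at 9946, 9643 and 9975 CPM. The 3 pools were nearly level for it, with a ratio of highest to lowest of 1.03.

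TUBA1A, the alpha-tubulin of growing neurons, was at 6558, 7737 and 7832 CPM and had 2156 CPM per kb. ACTG1, a cytoplasmic actin, was at 6204, 7296 and 7779.9 CPM. Both were lowest in pool 1 by less than 1.5-fold. TUBB, a beta-tubulin, EEF1A1 and EEF2, which carry out peptide elongation, GAPDH of glycolysis, VIM of intermediate filaments and ACTB of actin filaments were also among the 20 genes with the highest CPM, with means of 4600.3, 5452, 3319, 3593, 2903 and 2846 CPM. None of the 20 genes was differing, although MALAT1, a nuclear long noncoding RNA, reached 4604, 2438 and 3049 CPM and was 1.89-fold higher in pool 1 than in pool 2.

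Counts were spread over many genes. The 10 most abundant genes held 6.28%, 6.69% and 7.08% of the counts of pools 1, 2 and 3. On the mean of the pools, the top 100 genes held 21.2%, the top 1000 held 49.5%, and 1031 genes were needed to reach 50%.

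**Figure D1:**
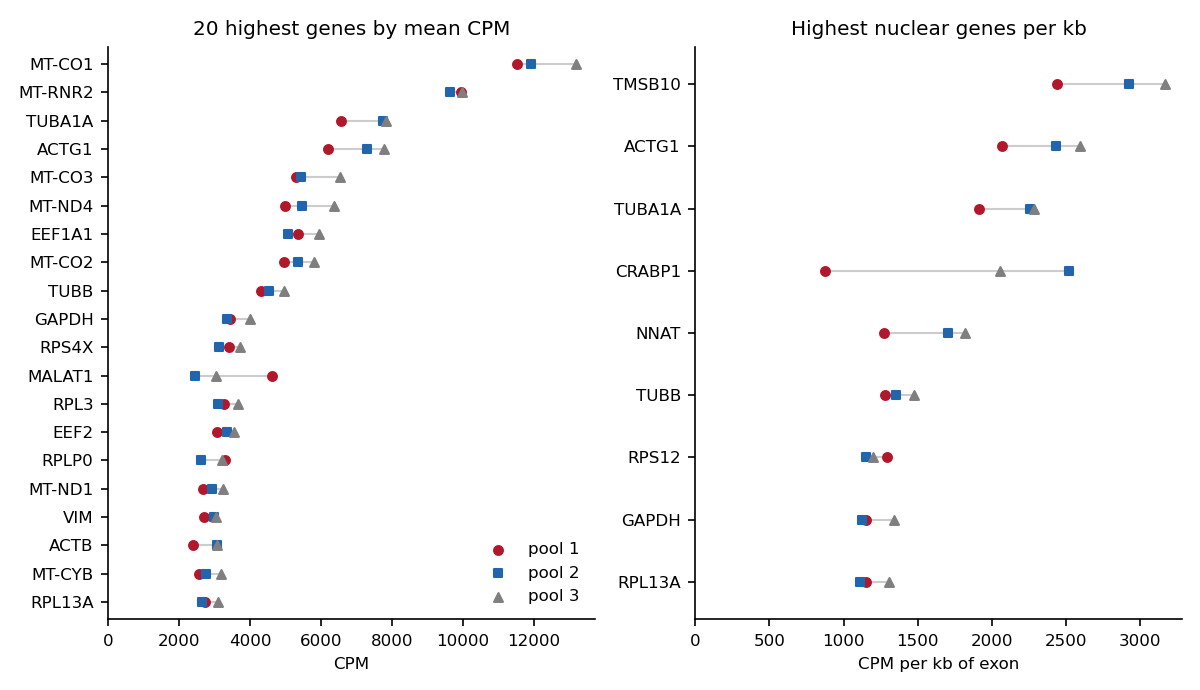
Levels of the most abundant genes in each pool. Left, CPM of the 20 genes with the highest mean CPM; right, CPM per kb of exon of nuclear genes among the 10 with the highest mean on that scale; each symbol is 1 pool and the grey line joins the lowest and the highest pool. CRABP1 is the gene of the right panel whose pools lie farthest apart, from 867 to 2502 CPM before division by length.

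Per kb of exon, the highest nuclear genes included neuronal and neuroepithelial ones. TMSB10, an actin-binding peptide of migrating cells, came first with 2845 CPM per kb, and ACTG1, TUBA1A and CRABP1 followed with 2370.0, 2156 and 1817. NNAT, an imprinted membrane proteolipid of the developing brain, had 1600.4 CPM per kb and was at 1699, 2275 and 2421 CPM. CRABP1, which binds retinoic acid in the cytoplasm, was the 1 differing gene of these 10, and it was not differing without pool 1. Its level was 867, 2502 and 2044 CPM, lowest in pool 1 and 2.89-fold higher in pool 2. Others of the 10 were RPS12 and RPL13A of the ribosome, TUBB and GAPDH, with 1214, 1190.2, 1369.5 and 1205 CPM per kb.

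Among long noncoding genes MALAT1 was followed in CPM by MIAT, a nuclear RNA known from neurons, at 681, 1286 and 862 CPM, highest in pool 2. GAS5, LRRC75A-AS1 and SNHG1, which host small nucleolar RNAs, were at 408, 403 and 161 CPM on average, and TUG1, LINC00657 and FGD5-AS1 at 274, 254 and 192. None of these was differing.

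Of the 10 long noncoding genes with the highest CPM, LINC00461 and MIR9-3HG are the transcripts whose genes span a hairpin of miR-9, a microRNA of neural progenitors. LINC00461 was at 299.9, 276 and 240.4 CPM. MIR9-3HG was at 273, 245 and 219 CPM. Each was highest in pool 1 and lowest in pool 3, with a ratio of 1.25. The counts are those of the polyadenylated host RNA, not of the microRNA. The MIR9-2 hairpin lies within LINC00461 at chr5:88666853-88666939 on the minus strand, and MIR9-3 within MIR9-3HG at chr15:89368017-89368106 on the plus strand, in RefSeq on GRCh38.p14. Both hairpins give the same pair of mature sequences, shown here because they are what joins these host genes, with the seed (bases 2 to 8) in capitals:
hsa-miR-9-5p: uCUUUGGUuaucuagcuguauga
hsa-miR-9-3p: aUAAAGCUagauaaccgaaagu

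Of the dorsal telencephalon genes 18 of 18 were present, against 65.4% of all protein-coding genes. The list was chosen with earlier results of these data known and holds genes that other regions also use. This count is therefore no check of the label of cortical organoids. LHX2, which specifies cortical rather than hem identity, was at 329, 138 and 178 CPM. Its gene ENSG00000106689 lies on chromosome 9, 124001670 to 124033301, on the plus strand, in GENCODE 29 on GRCh38. The mean was 215 ± 101 CPM (SD, n = 3), and pool 1 was the highest. EMX2 and EMX1 are factors of the dorsal telencephalon. EMX2 was at 217, 101 and 152 CPM. EMX1 was at 110.3, 50.3 and 56.2 CPM. LHX2, EMX2 and EMX1 were highest in pool 1 and lowest in pool 2, with ratios of 2.38, 2.16 and 2.19. PAX6, a factor of radial glia, was at 219, 123 and 183 CPM, which fell short of the 2-fold limit in the same order of pools. EMX2OS, which lies antisense to EMX2 and is named here after its values were seen, was at 204, 101 and 149.6 CPM, and reads of the 2 genes cannot be told apart unless strand was used in counting.

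Of the 18 genes 9 were differing (against 7.40% of all genes tested), and 8 of the 9 were highest in pool 1, among them LHX2, EMX2, EMX1, DMRTA2, SP8, DMRTA1 and TFAP2C. TFAP2C, a factor of progenitors, was at 14.5, 4.74 and 10.1 CPM. The exception was OTX2, a factor of forebrain and midbrain that is also required for the choroid plexus, at 26.1, 89.3 and 76.1 CPM, lowest in pool 1 by 3.42-fold. NR2F1 and NR2F2, nuclear receptors of the caudal cortex and other regions, were also lowest in pool 1. NR2F1 was at 286, 378 and 357 CPM. NR2F2 was at 80.7, 157 and 158 CPM. Pool 1 was the highest pool for 14 of the 18 genes, against 38.8% of all genes tested. Without pool 1, 2 of the 18 were differing, against 1.49% of all genes, and without pool 2 also 2, against 3.50%.

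**Figure D2:**
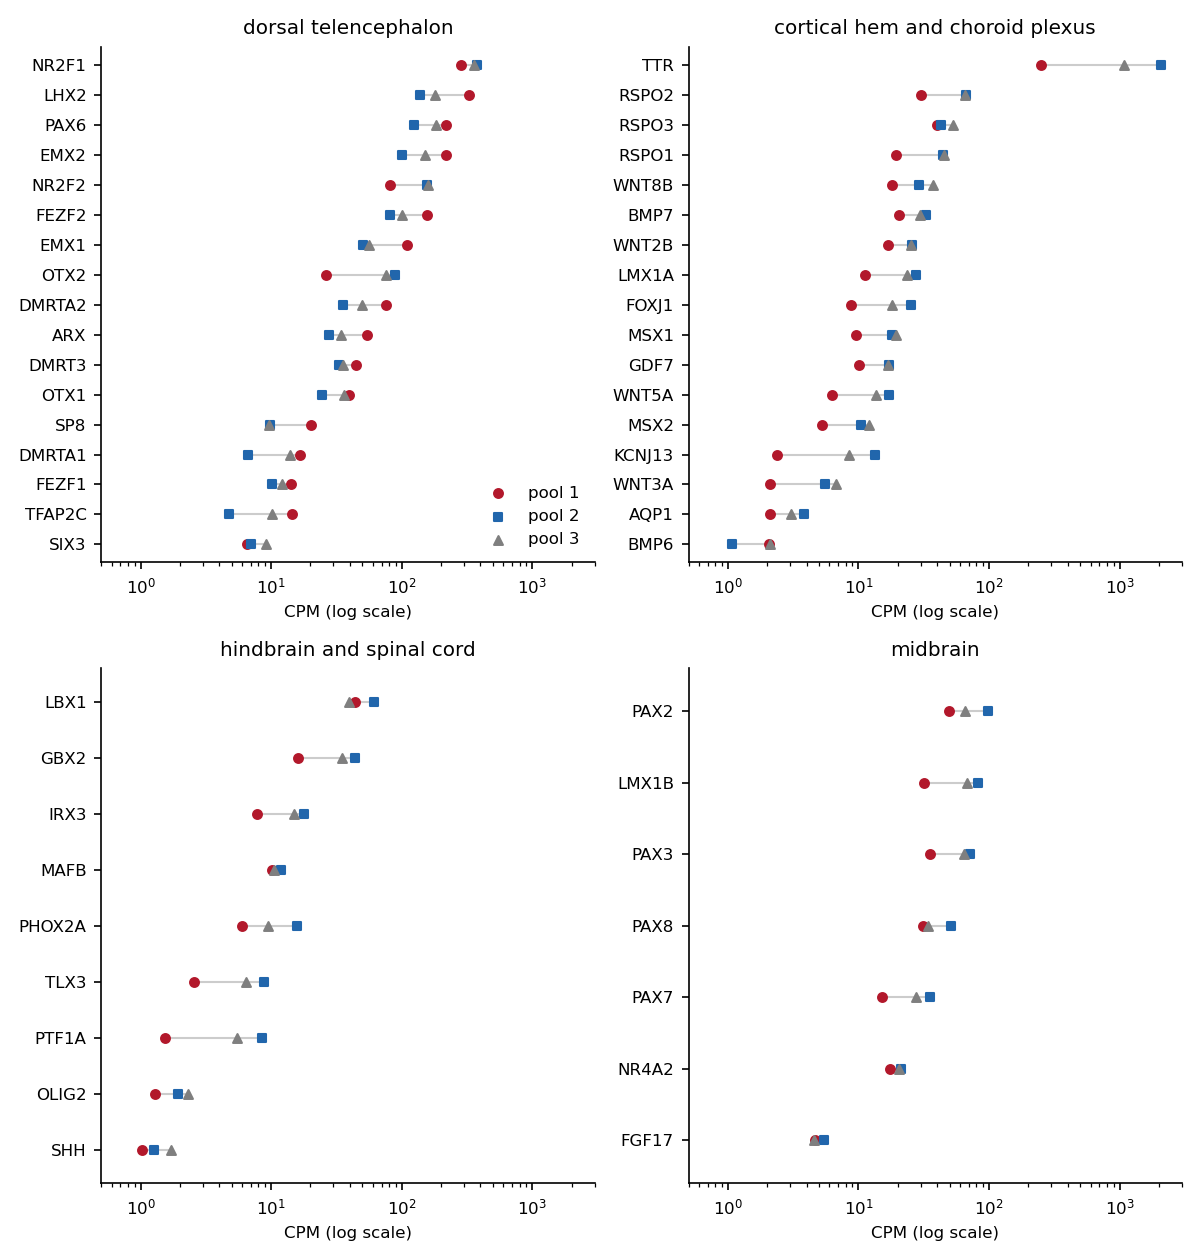
CPM of present members of 4 regional gene lists in each pool, on a log axis; each symbol is 1 pool and the grey line joins the lowest and the highest pool. Pool 1 lies to the right for most dorsal telencephalon genes, such as LHX2 at 329 CPM, and to the left for most hem and choroid plexus, hindbrain and midbrain genes, such as TTR at 249.6 CPM.

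Genes of the cortical hem and choroid plexus were present too, and pool 1 was the lowest for most of them. TTR, the thyroid hormone carrier that choroid plexus secretes in large amounts, was at 249.6, 2076 and 1082 CPM. The gene (ENSG00000118271) lies on chromosome 18, 31557010 to 31599021, on the plus strand. The mean was 1136 ± 914 CPM (SD, n = 3), pool 2 was 8.32-fold above pool 1, and pool 3 lay between them. CLIC6 and KCNJ13 are a chloride channel protein and a potassium channel of choroid epithelium. CLIC6 was at 0.77, 11.1 and 5.26 CPM. KCNJ13 was at 2.37, 13.5 and 8.48 CPM. CLIC6 thus passed 1 CPM in pools 2 and 3 only. FOXJ1, which drives motile cilia, was at 8.73, 25.1 and 18.1 CPM. AQP1, a water channel of choroid epithelium, was at 2.12, 3.84 and 3.02 CPM. KL, a mature choroid plexus gene, was not detected.

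The hem ligands and factors were lower than TTR per kb and had lower ratios. RSPO2, RSPO1 and RSPO3 amplify WNT signals. RSPO2 was at 30.2, 66.6 and 64.9 CPM. RSPO1 was at 19.5, 44 and 45.3 CPM. RSPO3 was at 39.7, 42.8 and 52.6 CPM. RSPO2 and RSPO1 were differing and lowest in pool 1, and RSPO3 was not differing. WNT8B, WNT2B, WNT5A and WNT3A, WNT ligands of the hem, had means of 28.1, 22.5, 12.4 and 4.82 CPM. WNT3A, which acts in the hem to expand the hippocampal field, was at 2.12, 5.58 and 6.77 CPM. LMX1A, MSX1 and MSX2 are roof plate factors. LMX1A was at 11.2, 27.6 and 23.7 CPM. MSX1 was at 9.49, 18 and 19.3 CPM. MSX2 was at 5.26, 10.5 and 12 CPM. All 3 factors were differing and lowest in pool 1. BMP7 and GDF7, ligands of the roof plate, averaged 27.6 and 14.8 CPM, and BMP4 stayed low at 0.128, 1.38 and 0.263 CPM.

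In all, 17 of 20 hem and choroid genes were present, 12 were differing, and each of the 12 was lowest in pool 1. Pool 1 was lowest for 17 of the 18 members tested, against 36.8% of all genes tested. Pool 2 was the highest for 11 of the 18 and pool 3 for 7. Without pool 1, CLIC6 was the 1 member that differed between pools 2 and 3.

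Most genes of the ventral telencephalon list were low or not detected. NKX2-1, the factor of the medial ganglionic eminence and hypothalamus, had 0 counts in every pool, and LHX6 and LHX8, which act downstream of it, were not detected. DLX1, DLX2, DLX5 and DLX6, homeobox genes of GABAergic neurons and their progenitors, were low. DLX1 was at 2.82, 0.96 and 4.93 CPM. DLX6 was at 3.21, 0.30 and 4.21 CPM. Pool 2 was the lowest for all 4 genes. DLX6-AS1, which overlaps DLX6 on the opposite strand and cannot be told apart from it unless strand was used in counting, was at 8.66, 1.98 and 13 CPM with the same order of pools. GSX2, a progenitor factor of the ventral telencephalon and of more posterior regions, was at 3.59, 15.4 and 10.2 CPM, lowest in pool 1. DLX5 and GBX1 are homeobox factors. DLX5 was at 2.05, 0.60 and 2.63 CPM. GBX1 was at 0.577, 2.28 and 1.45 CPM. EBF1 and GSX1, factors of differentiating neurons and of progenitors that other regions share, were present. EBF1 was at 24.2, 41.8 and 35.1 CPM. GSX1 was at 3.85, 6.66 and 5.26 CPM. Of the 16 genes of the list 6 were present, and 10 were without pool 2 or at a minimum of 0.5 CPM. The 6 differing genes of the 11 tested (3 without pool 1, 2 without pool 2) included GSX2, DLX1, DLX5, DLX6 and GBX1.

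Genes of the diencephalon, hypothalamus and eye were few. TCF7L2, a WNT effector of the thalamus that many tissues express, was at 35.7, 37 and 47.7 CPM. BARHL2 and LHX9 are homeobox factors of the diencephalon. BARHL2 was at 8.85, 7.08 and 12.9 CPM. LHX9 was at 11.7, 15.8 and 17.2 CPM. These were 3 of the 4 genes present among 14, the other being BARHL1 at 1.22, 3.42 and 3.94 CPM, differing and lowest in pool 1. Of the 14 genes 6 were tested, and 3 were differing (0 without pool 1). FOXB1, a factor of the hypothalamus and hindbrain, was at 0.898, 2.94 and 3.94 CPM in a like pattern. NKX2-4 and SIM1 had 0 counts, and SIX6 was not detected. Of 19 eye genes 7 were present. MITF, the factor of pigment cells and of many other cells, was at 3.98, 10.7 and 8.28 CPM. RPE65 of the retinal pigment epithelium was at 0.513, 3.78 and 4.01 CPM. RAX, the eye field factor, was at 0.385, 1.86 and 1.05 CPM. These 3 were the differing genes among the 10 tested (0 without pool 1), each lowest in pool 1. The pigment enzymes TYR and TYRP1 stayed below 1 CPM in every pool. DCT, another enzyme of that pathway, was at 0.77, 1.38 and 1.58 CPM. PMEL, a melanosome protein, was present at 3.21, 5.34 and 3.09 CPM.

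Some members of the midbrain and hindbrain lists, 7 of 16 and 10 of 18, were present as well, against 65.4% of all protein-coding genes. The label of cortical organoids does not name these regions, and such counts alone do not show their cells. The defining midbrain genes EN1 and PITX3 were not among the members present. PHOX2A, a homeobox factor of visceral motor and noradrenergic neurons of the hindbrain, was at 6.03, 15.7 and 9.4 CPM. LMX1B, PAX3 and PAX7 are dorsal and midbrain factors. LMX1B was at 31.6, 82.1 and 68.2 CPM. PAX3 was at 35.4, 70.9 and 63.7 CPM. PAX7 was at 15.3, 35.1 and 27.4 CPM. GBX2, which sets the border of the hindbrain with the midbrain, was at 16.2, 44.1 and 35.1 CPM. Each of these 5 genes was differing, lowest in pool 1 and highest in pool 2. PAX2, which the eye list also holds, and PAX8 are paired-box factors used at the isthmus among other places. LBX1 is a factor of dorsal interneurons. PAX2 was at 49.1, 97.5 and 64.9 CPM. PAX8 was at 31.4, 50.8 and 34.3 CPM. LBX1 was at 43.5, 61.2 and 39.4 CPM. None of the 3 was differing.

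PTF1A, a factor of GABAergic progenitors in the cerebellum, hindbrain and spinal cord, was at 1.54, 8.52 and 5.45 CPM. TLX3, a selector of glutamatergic neurons there, was at 2.57, 8.76 and 6.37 CPM. ATOH1, the factor of the rhombic lip, was at 0.898, 2.34 and 2.56 CPM. All 3 were differing and lowest in pool 1. Other defining genes were low or not detected. EN1 and PITX3 of the midbrain were not detected, and EN2, FGF8 and PAX5 were low. WNT1, a ligand of the isthmus and dorsal midline, was at 0.192, 1.74 and 1.58 CPM. FOXA1, a factor of the floor plate, was at 1.73, 0.30 and 1.58 CPM. SHH of the floor plate was present but near the limit of 1 CPM, at 1.03, 1.26 and 1.71 CPM. CDX1, CDX2, CDX4 and NKX2-2, genes of the posterior body and of the ventral spinal cord, had 0 counts in every pool. Of 18 hindbrain and spinal cord genes 10 were present, and 7 of the 11 tested were differing. Of 16 midbrain genes 7 were present, and 5 of the 9 tested were differing. Without pool 1 none of either list was differing, and without pool 2 the midbrain count was 1.

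HOX genes were read over the 39 genes of the 4 clusters. HOX genes are turned on in order along each cluster, so that low paralog groups mark the hindbrain and high groups the trunk. HOXB3 was at 38.1, 112 and 85.2 CPM. HOXB2 was at 23.9, 52.5 and 42.7 CPM. HOXA2 was at 19.8, 41.3 and 28.6 CPM. HOXB3 (ENSG00000120093), with a mean of 78.4 ± 37.3 CPM (SD, n = 3), lies on chromosome 17, 48548870 to 48604912, on the minus strand. HOXB4, HOXA3 and HOXC4 were at 9.49, 8.05 and 6.43 CPM on average. All 7 present genes were lowest in pool 1 and highest in pool 2, and 6 were differing, against 7.40% of all genes tested. Without pool 1, 0 of the 7 were differing, against 1.49% of all genes. Of the 12 genes of paralog groups 1 to 4, 7 were present. Of the 27 genes of groups 5 to 13, 0 were present and 18 were not detected, and the highest level any of them reached in a pool was 0.840 CPM, for HOXB9.

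**Figure D3:**
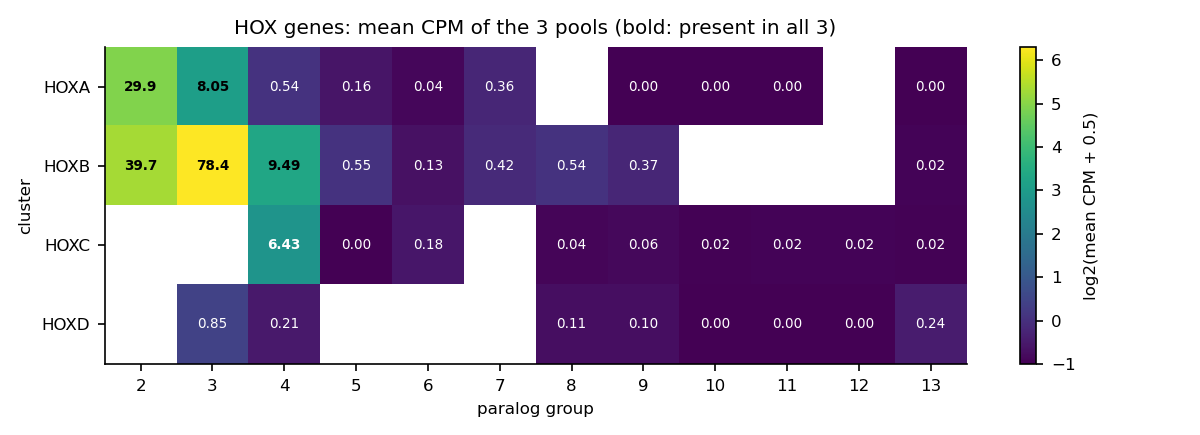
Mean CPM over the 3 pools of HOX genes of paralog groups 2 to 13, by cluster (rows) and paralog group (columns); colour gives log2(mean CPM + 0.5), white cells are positions with no gene, and bold numbers are genes present in all 3 pools. The present genes shown lie in paralog groups 2 to 4, with HOXB3 at 78.4 CPM.

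Radial glia and neuroepithelial genes were present in full, 24 of 24. SOX2, the factor that keeps neural progenitors undifferentiated, was at 289, 239.6 and 244 CPM. NES and VIM are intermediate filament proteins of progenitors. NES was at 477, 679 and 700.3 CPM. VIM was at 2690.0, 2979.6 and 3040.3 CPM. None of these passed the 2-fold limit. SOX1, SOX9 and HES1 averaged 73.1, 95.2 and 63.8 CPM. Of the 24, 3 were differing (0 without pool 1, 1 without pool 2). PTPRZ1, a receptor phosphatase of radial glia, was at 553, 255 and 348 CPM, highest in pool 1. PTN, a growth factor that binds that receptor, was at 107, 276 and 232 CPM, lowest in pool 1. HES5, a Notch target, was at 39.4, 80.5 and 49.4 CPM, highest in pool 2. Per kb, VIM led the list with 563, followed by PTN with 119.6 and NES with 111.

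Genes named for outer radial glia, a basal progenitor class that expands later in human cortex, were present in 7 of 7, and the list includes genes that other cells use. FAM107A was at 150.3, 118 and 138 CPM. HOPX was at 8.98, 5.52 and 6.5 CPM. TNC, a matrix protein, was the 1 differing gene (0 without pool 1, 0 without pool 2), at 37, 15.7 and 26.4 CPM, highest in pool 1.

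Proliferation genes were present in full, and pool 1 had the most. The 18 DNA replication genes summed to 3098, 1873 and 2388 CPM and the 22 mitosis genes to 2581, 1693 and 2235 CPM. Pool 1 was highest for 17 of the 18 and for 20 of the 22, against 38.8% of all genes. Pool 2 was lowest for 17 and for 22 of them, against 36.8% of all genes. MCM7, of the replicative helicase, was at 612, 377 and 505 CPM. TOP2A, which untangles DNA, was at 422, 251 and 348 CPM. MKI67, a protein of dividing cells, was at 222, 139.8 and 195 CPM. The ratios were mostly below the limit: 0 replication genes and 1 mitosis gene were differing (0 without pool 1, 0 without pool 2), the latter being ASPM, a spindle pole protein, at 73, 30.1 and 43.6 CPM. The median ratio of highest to lowest pool was 1.67 for replication and 1.46 for mitosis, against 1.25 over all genes tested.

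Genes of the step from progenitor to neuron were present in 16 of 16. HES6 and DLL1 mark cells committed to become neurons. HES6 was at 192, 247 and 220.0 CPM. DLL1 was at 107, 126 and 128 CPM. NEUROG2, the proneural factor of cortical glutamatergic neurons, was at 68.1, 56 and 60.0 CPM. EOMES, the factor of cortical intermediate progenitors, was at 18, 9.66 and 17.7 CPM, lowest in pool 2 but short of the limit. Of the 16, 2 were differing (1 without pool 1, 0 without pool 2, 1 without pool 3), and NEUROG1 was one of them, at 1.86, 1.38 and 3.02 CPM.

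Neuronal genes were present in 23 of 23 and 0 were differing. STMN2, a regulator of growing microtubules, was at 765, 1092 and 1101 CPM. DCX of migrating neurons was at 867, 1113 and 1022 CPM. GAP43 of growth cones was at 439.7, 596 and 586 CPM. Per kb, STMN2 led with 417, followed by GAP43 with 259 and CRMP1, a mediator of axon guidance, with 214. The list summed to 8235, 10069 and 9755 CPM, and pool 1 was lowest for 19 of the 23 genes, against 36.8% of all genes tested. Genes of later neurons were lower per kb: SYN1 of synaptic vesicles had 9.84, and RBFOX3, the NeuN antigen of mature neurons, had 1.4. TUBB3, a beta-tubulin of neurons, counted only 24.6, 27.4 and 26.2 CPM. Of its exon length 35.8% is shared with another gene on the same strand in GENCODE 29, and the rule for assigning such reads is not stated.

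Markers of cortical deep layers were present in 11 of 12. This list shares FEZF2 with the dorsal telencephalon list, so their counts are not independent, and presence in bulk RNA does not name the cells. TBR1, which specifies the first-born glutamatergic neurons, was at 53.7, 23.1 and 36.6 CPM. NEUROD6 and SOX5 are factors of postmitotic cortical neurons. NEUROD6 was at 122, 58 and 62 CPM. SOX5 was at 73.5, 32.5 and 41.7 CPM. FOXP2 was at 13, 5.94 and 12.6 CPM. These 4 were differing (1 without pool 1, 0 without pool 2), each highest in pool 1 and lowest in pool 2. FEZF2 and BCL11B specify subcortical projection neurons. FEZF2 was at 157, 80.9 and 100.1 CPM. BCL11B was at 42, 24.1 and 33.2 CPM. Both had the same order of pools. Of the upper-layer list 9 of 9 were present, a list whose CUX and POU3F genes progenitors and neurons of other regions also express. POU3F2 was the 1 differing gene (0 without pool 1, 0 without pool 2), at 43.2, 101 and 74.2 CPM, lowest in pool 1.

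Cajal-Retzius genes, of the early neurons that pattern the cortex from its surface, were present in 8 of 8. RELN, the secreted protein that guides migration, was at 94.9, 95.9 and 117 CPM. TP73, a defining gene of the hem-derived cells, was at 3.27, 9.24 and 6.44 CPM. LHX1 and LHX5 are homeobox factors also used in hindbrain and spinal interneurons. LHX1 was at 21.6, 68.1 and 49.9 CPM. LHX5 was at 18.5, 52.8 and 40.6 CPM. These 3 were the differing genes (0 without pool 1), each lowest in pool 1 and highest in pool 2.

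Transmitter genes were of mixed kinds. SLC17A7 and SLC17A6 are the vesicular glutamate transporters of cortical and of mainly subcortical neurons. SLC17A7 was at 59.6, 30.9 and 40.9 CPM. SLC17A6 was at 28.1, 49.9 and 40.2 CPM. Pool 1 was the highest for SLC17A7 and the lowest for SLC17A6. GAD1, GAD2 and SLC32A1 make and load GABA. GAD1 was at 45.5, 80.6 and 56.8 CPM. GAD2 was at 18.3, 33.9 and 28.6 CPM. SLC32A1 was at 21.7, 49.3 and 37.3 CPM. All 3 were lowest in pool 1. SLC32A1 alone of these passed the 2-fold limit. SLC6A5, the glycine transporter of hindbrain and spinal cord neurons, was at 42.5, 83.5 and 52.8 CPM. CALB1, a calcium buffer, was at 2.18, 15.5 and 10.6 CPM. SLC17A8, the third vesicular glutamate transporter, was at 2.95, 13 and 7.95 CPM. CALB1 and SLC17A8 were differing and lowest in pool 1, which with SLC32A1 made 3 differing genes of 14 (0 without pool 1).

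Of the interneuron markers, SST was at 23.6, 17.6 and 24 CPM, while VIP and PVALB were not detected and NPY was low. TH and DDC are enzymes of dopamine synthesis. TH was at 9.49, 32.8 and 23.4 CPM. DDC was at 1.35, 4.56 and 3.88 CPM. Both were lowest in pool 1. SLC6A4, TPH2 and FEV of serotonin neurons were not detected, and SLC6A3 and DBH of dopamine and noradrenaline neurons were low. SLC18A3 and SLC5A7 load acetylcholine and take up choline. SLC18A3 was at 1.28, 3.78 and 2.1 CPM. SLC5A7 was at 1.09, 2.64 and 0.723 CPM. Both were highest in pool 2. Of this list of 12, 5 were tested. TH, DDC, SLC18A3 and SLC5A7 were the 4 differing genes (1 without pool 1, 2 without pool 2).

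Genes of glia were few. GJA1, a gap junction protein of radial glia and astrocytes, was at 23.8, 44.9 and 50.8 CPM. GFAP and ALDH1L1 are genes of astrocytes. GFAP was at 2.82, 1.14 and 0.591 CPM. ALDH1L1 was at 2.76, 0.48 and 0.788 CPM. Both were highest in pool 1. PDGFRA and OLIG1 are genes of oligodendrocyte precursors. PDGFRA was at 1.92, 6.12 and 4.99 CPM. OLIG1 was at 0.706, 2.7 and 1.51 CPM. Both were lowest in pool 1. GJA1 and these 4 were the differing genes among the 11 tested (0 without pool 1). AQP4 of astrocytes and SOX10, MAG and MOG of oligodendrocytes were not detected, and 8 of the 15 genes of the list were present.

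Genes of other lineages were looked for because the protocol starts from pluripotent cells. TFAP2B and TFAP2A are factors of neural crest, surface ectoderm and dorsal neurons. TFAP2B was at 57.7, 194 and 133 CPM. TFAP2A was at 39.5, 117 and 90.3 CPM. Both were lowest in pool 1. FOXD3, a crest factor that dorsal interneurons also use, was at 0.385, 7.02 and 3.02 CPM. Its overlapping neighbour FOXD3-AS1 was at 2.44, 13.6 and 7.56 CPM, in the same order of pools. SOX10 and TWIST1, which define crest and mesenchyme, were not detected. The collagens COL1A1 and COL3A1 and the factor PRRX1 mark mesenchyme. COL1A1 was at 4.23, 1.2 and 1.25 CPM. COL3A1 was at 3.91, 0.42 and 0.92 CPM. PRRX1 was at 2.57, 0.30 and 2.23 CPM. All were highest in pool 1. The list summed to 139, 372 and 279 CPM, with 8 of 15 present and 8 of the 12 tested differing (3 without pool 1).

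Of 16 surface epithelium and placode genes 6 were present. KRT8 and KRT18 are keratins of simple epithelia. KRT8 was at 4.68, 16.1 and 12.2 CPM. KRT18 was at 3.27, 7.38 and 5.65 CPM. Both were lowest in pool 1, whereas TP63, KRT14 and GRHL2 of skin were not detected. Of 14 mesoderm and muscle genes 1 was present, MESP1 at 1.48, 2.64 and 1.18 CPM, and brachyury, listed under the symbol T, had 0 counts. Of 12 endoderm genes TTR alone was present. SOX17, HNF4A, AFP and GATA6 were not detected, and ALB was at 0.706, 1.2 and 0.657 CPM. Of 19 genes of endothelium, blood and microglia only CLDN5, a tight junction protein, was present, at 2.95, 8.4 and 6.7 CPM. KDR was at 0.449, 2.22 and 0.986 CPM, and PECAM1, HBB, P2RY12 and CX3CR1 were not detected.

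Pluripotency genes were off at their core. POU5F1 and NANOG, the factors that hold the pluripotent state, each had 0, 0 and 1 counts, and TDGF1 had 0 counts in every pool. DNMT3B, a DNA methyltransferase that early progenitors also use, was at 44.2, 81.5 and 66.4 CPM. LIN28B, a regulator of let-7, was at 18.2, 17.4 and 19.5 CPM. SALL4 was at 8.53, 12.1 and 10.8 CPM. LIN28A was at 0.642, 3.66 and 3.02 CPM. DPPA4 was at 4.49, 10.6 and 6.64 CPM. LIN28A and DPPA4 were the 2 differing genes of the 5 tested (0 without pool 1, 1 without pool 2), each lowest in pool 1. In all 4 of 16 genes were present.

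NOTCH2NL, the gene the series was designed around, was low in these WT pools, at 0.257, 0.30 and 0.197 CPM, from 4, 5 and 3 counts. It was looked up after the lists were made and belongs to none of them. The identifier ENSG00000264343 is annotated on chromosome 1, 146146203 to 146229026, on the minus strand, and other NOTCH2NL copies were not analysed here. NOTCH2NL genes are near-identical copies of part of NOTCH2, so reads from them may be assigned to NOTCH2 or left uncounted, and this level is uncertain. NOTCH2, a receptor, was at 148, 121 and 129.6 CPM.

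The other Notch pathway genes were present in 25 of 25 with NOTCH2 among them. Of the receptors, NOTCH1 was at 263, 209 and 219 CPM. NOTCH3 was at 163, 156 and 164 CPM. Of the ligands, DLL3 was at 38.9, 75.2 and 76.7 CPM. JAG1 was at 32.4, 44.9 and 53.1 CPM, lowest in pool 1. DLL4 was at 2.37, 3.3 and 2.83 CPM. RBPJ, the factor through which the receptors act, was at 124, 84.8 and 106 CPM. The 4 differing genes (0 without pool 1) were all targets. HEY1 was at 91.9, 42.5 and 44.5 CPM. HEY2 was at 19.6, 7.98 and 9.2 CPM. Both were highest in pool 1. HES5 was highest in pool 2, and HEYL was at 1.15, 4.38 and 3.42 CPM, lowest in pool 1.

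Hedgehog genes were present in 11 of 15. Of the ligands, SHH was at the levels given above, and IHH and DHH were not detected. The co-receptors BOC and CDON, the transducer SMO and the receptor PTCH1, which is itself a target, were at 233, 186, 108 and 52.5 CPM on average. GLI1, a target gene, was the 1 differing member (0 without pool 1), at 16.1, 6.36 and 7.62 CPM, highest in pool 1. That was 9.09% of the members tested, against 7.40% of all genes. GLI3, which acts largely as a repressor in dorsal telencephalon, was at 298, 156 and 199.7 CPM.

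Of 24 WNT genes 20 were present and 5 differing (2 without pool 1, 1 without pool 2). SFRP1, a secreted antagonist, was at 532, 182 and 288 CPM. LEF1, a nuclear effector, was at 264, 99.4 and 165 CPM. Both were highest in pool 1 and lowest in pool 2. AXIN2, a general target, was near even at 52.3, 56.1 and 56.4 CPM. WNT7B, a ligand of cortical cells, was at 119, 119 and 119 CPM. SP5 was at 0.898, 2.4 and 1.84 CPM and lowest in pool 1. FZD5 was at 0.321, 2.04 and 0.723 CPM and lowest in pool 1. NOTUM was at 2.12, 2.04 and 0.657 CPM, lowest in pool 3.

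In the BMP and TGF-beta list 20 of 24 genes were present. ID1, ID2 and ID3 are direct targets of BMP signalling. ID1 was at 12, 53 and 40.8 CPM. ID2 was at 42.9, 91.9 and 77.9 CPM. ID3 was at 22.7, 53.7 and 49.7 CPM. They were the 3 differing genes (0 without pool 1), all lowest in pool 1, with ratios of 4.42, 2.14 and 2.36. ID4, a relative that cortical progenitors use, was highest in pool 1 at 123, 75.4 and 91.5 CPM and was not differing. NODAL had 0 counts and LEFTY2, its target, was not detected. Of 21 FGF genes 18 were present and 1, SPRY4, was differing (0 without pool 1, 0 without pool 2), at 1.99, 4.14 and 2.76 CPM. That was 5.56% of the members tested, against 7.40% of all genes. FGFR3, FGFR1 and FGFR2 were at 225, 196 and 126 CPM on average, and FGF8, a ligand of the anterior forebrain and the isthmus, was low at 0.257, 0.48 and 0.723 CPM.

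Of 27 hypoxia and glycolysis genes 25 were present and 0 differing. LDHA was at 183, 162 and 199 CPM. PGK1 was at 289, 284 and 332 CPM. VEGFA was at 160.1, 98.7 and 116 CPM, while the hypoxia targets CA9 and ADM were low. Of 20 stress genes 18 were present and 2 differing (1 without pool 1, 0 without pool 2), SLC7A11 and HMOX1. These made 10.5% of the members tested, against 7.40% of all genes. SLC7A11 was at 13.5, 6.6 and 10.1 CPM. HMOX1 was at 0.898, 3.42 and 0.986 CPM. ATF4, of the integrated stress response, was at 576, 438 and 531 CPM. Of 16 p53 targets 14 were present and GDF15 alone was differing (0 without pool 1), or 6.25% of those tested against 7.40% of all genes. GDF15 was at 0.898, 3.0 and 4.27 CPM, lowest in pool 1. At means of 1 to 5 CPM, 21.5% of all genes were differing. CDKN1A, an inhibitor of the cell cycle, was at 103, 96.5 and 142 CPM.

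Immediate early genes, which can respond to handling at harvest as well as to activity, were present in 13 of 17. EGR1 was at 65.1, 24.7 and 30.9 CPM. FOS was at 31.4, 9.78 and 17.7 CPM, highest in pool 1. FOSB was at 2.57, 1.14 and 3.09 CPM. These were the 3 differing genes (1 without pool 1, 1 without pool 2), and JUN and JUND were not differing. JUN was at 86.2, 100.0 and 85.8 CPM. JUND was at 143, 152 and 141 CPM.

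Cholesterol synthesis genes were present in 19 of 19, and pool 1 was the highest for 17 of them, against 38.8% of all genes tested. HMGCS1, an early enzyme of the pathway, was at 1692, 1102 and 1308 CPM. Of the 19 genes 1 was differing (0 without pool 1), or 5.26% against 7.40% of all genes. CYP51A1 counted only 2.18, 1.38 and 1.71 CPM, and 79.4% of its exon length is shared with another gene on the same strand.

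Of 22 matrix genes 20 were present and 6 differing (0 without pool 1). LAMB1 was at 33, 82.8 and 67.9 CPM. COL2A1 was at 16.9, 34.4 and 33 CPM. NID2, a basement membrane protein, was at 0.577, 6.42 and 5.32 CPM. All 3 were differing and lowest in pool 1. COL5A1 was at 64.5, 31.1 and 32.3 CPM, highest in pool 1 like COL1A1 and COL3A1. SPARC, the member with the highest level per kb, was at 335, 602 and 509 CPM and was not differing.

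Imprinted genes were present in 16 of 22. PEG3 and ZIM2, which share a promoter and exons, had 0 counts in every pool, and PEG3 shares 12.9% of its exon length with another gene. MEG3, the maternally expressed RNA of its cluster, was at 0.642, 1.68 and 1.31 CPM. MEG8 was not detected, while DLK1, the paternally expressed gene of the same cluster, was at 93.9, 106 and 111 CPM. PEG10 was at 569.6, 560.3 and 563 CPM. NDN was at 169, 177 and 195 CPM. H19 was low at 0.706, 1.14 and 0.46 CPM. IGF2, with 73.7% of its exon length shared, was at 2.5, 3.06 and 2.83 CPM. CDKN1C was at 21.2, 43.3 and 39 CPM and, with MEG3, made the 2 differing genes (0 without pool 1, 0 without pool 2), both lowest in pool 1.

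Of 89 clustered histone genes, whose main transcripts lack a polyA tail, 12 were present, and 21 were at a minimum of 0.5 CPM. HIST2H2BE was at 33.3, 43.6 and 47.3 CPM. Of 89 cytosolic ribosomal protein genes 84 were present and 0 differing, and their share of counts was 9.17%, 8.48% and 9.65%. Pool 2 was the lowest for 72 of the 84 tested, against 36.8% of all genes tested, and for 64 when scaled by library size alone. Near-identical copies make single histone and ribosomal protein genes uncertain.

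The genes that varied most between the pools had an order in common. Of the 1158 differing genes, 665 were lowest in pool 1, 292 in pool 2 and 201 in pool 3, and 602 were highest in pool 2, 361 in pool 1 and 195 in pool 3. Pool 3 lay between the other pools in 762 of them, or 65.8%, against 46.2% of all genes tested. The pattern of pool 1 low and pool 2 high was that of 519 genes (44.8%), and the reverse was that of 243 (20.98%). Over all genes tested, the median log2 difference from the 3-pool mean was 0.0072, -0.0069 and 0.0056, and over the genes of each of 23 chromosomes it was between -0.048 and 0.038.

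**Figure D4:**
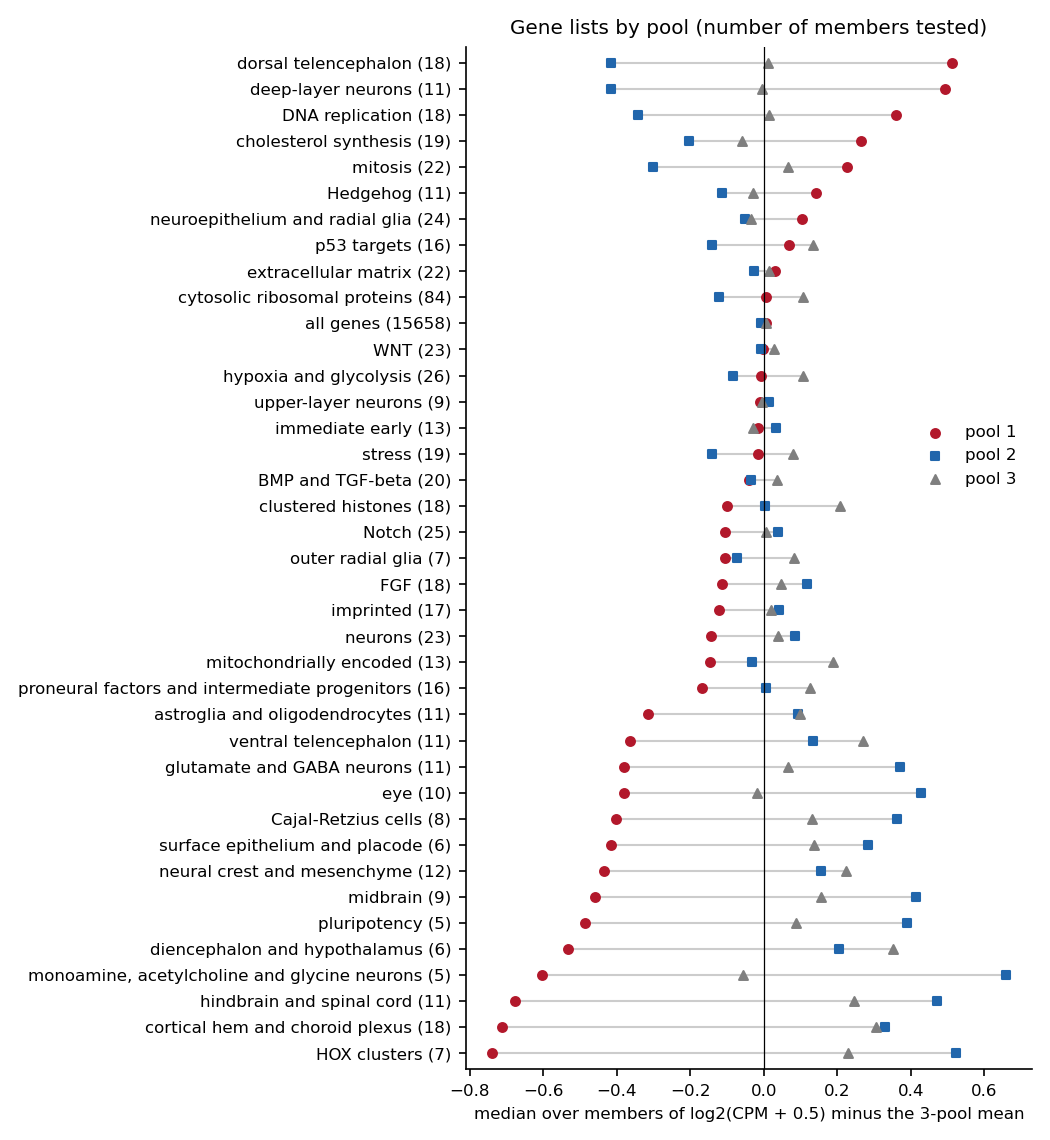
Median over tested members of log2(CPM + 0.5) minus the 3-pool mean, for all genes and for gene lists with at least 5 tested members. Each symbol is 1 pool, and the number tested stands after the list's name. Among the lists shown, pool 1 has its highest value for dorsal telencephalon genes (0.51) and its lowest for HOX genes (-0.74). The 3 pools coincide near 0 for all genes.

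The largest ratio among differing genes with a mean of at least 5 CPM was that of CLIC6, at 14.4 with an adjusted p of 1.51e-31 by Pearson's chi-square test. IGFBP7, a secreted matrix protein, followed at 0.77, 9.48 and 6.18 CPM and then TTR. HTR2C, the serotonin receptor that is abundant in choroid plexus, was at 18, 124 and 60.1 CPM. Other genes of the 20 with the highest ratio are known from choroid plexus or other transporting epithelia. CA2, a carbonic anhydrase, was at 10.9, 68.5 and 44.5 CPM. FOLR1, the folate receptor, was at 3.72, 18.4 and 15.2 CPM. SLC4A5, a bicarbonate transporter, was at 2.69, 12.5 and 8.28 CPM. SLC13A4, a sulfate transporter, was at 6.54, 36.4 and 21.5 CPM. In every one of these pool 1 was the lowest and pool 2 the highest. SERPINF1, a secreted factor, and SLC7A8, an amino acid transporter, had that order too. SERPINF1 was at 8.92, 50.0 and 27.7 CPM. SLC7A8 was at 9.82, 47.3 and 29.2 CPM.

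POU4F1, a factor of sensory and some hindbrain neurons, was at 3.72, 21.8 and 15.3 CPM. The remaining genes of the 20 were CALB1, KCNJ13, PTF1A, DLX6-AS1 and FOXD3-AS1, given above, and CDC20B, CPXM2, LSR and COLEC12, and 19 of the 20 were lowest in pool 1, the exception being DLX6-AS1. Without pool 1, 3 of the 20 remained differing, without pool 2, 19 did, and without pool 3 all 20 did.

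Differing genes with a mean of at least 100 CPM were 31 of 2128 tested at that level (1.46%), and their names were chosen after their values were seen. Pool 1 was the lowest for 18 of them and the highest for 13. Without pool 1, 0 of the 31 were differing, without pool 2, 10, and without pool 3, 31. HMGA2, a chromatin protein of early progenitors, was among the latter, at 421, 142 and 251 CPM. CCND2, a cyclin of the first phase of the cell cycle, was at 634, 283 and 356 CPM. Those lowest in pool 1 included factors and axonal proteins. ZIC1, a factor of dorsal neural tube, was at 69.8, 239 and 222 CPM. ROBO3, which lets axons cross the midline, was at 296, 807 and 455 CPM. CNTN2, an axonal adhesion protein, was at 289, 677 and 582 CPM. WLS, which carries WNT ligands to the cell surface and is abundant in hem and roof plate, was at 137, 284 and 267 CPM.

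**Figure D5:**
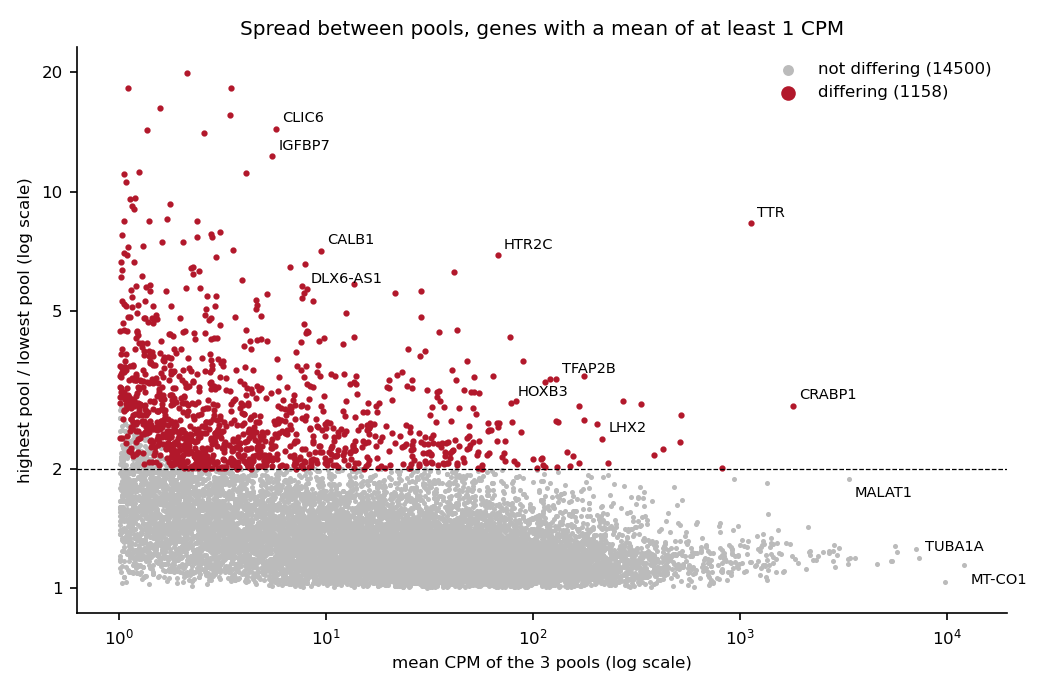
Ratio of the highest to the lowest pool against the mean CPM, both on log axes, for the 15658 genes tested; red points are the 1158 differing genes and the dashed line is the ratio of 2. Ratios are largest at low levels, and TTR, at a mean of 1136 CPM with a ratio of 8.32,, is labelled at the upper right.

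The share of differing genes depended on level, since 21.5% of genes from 1 to 5 CPM were differing, 6.63% from 5 to 20 CPM, 2.14% from 20 to 100 CPM and 1.46% above. Among gene types it was 6.31% of 13259 protein-coding genes and 17.8% of 533 long intergenic noncoding genes. Near the limit, 263 genes past counting error had a ratio from 2 to 2.2 and 411 from 1.8 to 2. The edgeR common dispersion of the 3 pools gave a biological coefficient of variation of 0.155.

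Genes that set 1 pool apart, with the other pools within 1.5-fold of each other and a mean of at least 5 CPM, were mostly those of pool 1: it was the highest for 94 and the lowest for 197. Pool 2 was the highest for 21 and the lowest for 38, and pool 3 for 1 and 4. IL13RA2, a decoy receptor for interleukin-13, was highest in pool 1, at 11.8, 3.96 and 3.68 CPM. TRPC6, a calcium channel, was at 13.9, 5.34 and 4.86 CPM. SEL1L3 was at 87.2, 30.7 and 35.5 CPM. TRPC6, SEL1L3, FAM184B, ECHDC2, LINC00698 and FRMD6 were likewise highest in pool 1. ZIC4, a factor of dorsal neural tube and cerebellum, was lowest in pool 1, at 13.2, 58.8 and 57.4 CPM. GLIS3 was at 2.05, 7.62 and 7.75 CPM. RBM47, an RNA-binding protein of epithelia, was at 4.62, 19.9 and 16.3 CPM. GLIS3, RBM47, LSR, CALB1, POU4F1, FOLR1 and COLEC12 were likewise lowest in pool 1.

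Pool 2 was set apart by smaller ratios. It was the highest for the next 3 genes. DIO3OS, an imprinted noncoding RNA, was at 7.19, 14.6 and 5.72 CPM. LINC00599 was at 98.6, 218 and 120.2 CPM. PRPH, an intermediate filament of peripheral and motor neurons, was at 5.52, 12.1 and 7.1 CPM. It was the lowest for LIX1, CTSC and STC2. LIX1 was at 62.2, 26 and 55.7 CPM. CTSC, a lysosomal protease, was at 97.5, 38.2 and 68.5 CPM. STC2, a secreted glycoprotein, was at 10.8, 3.72 and 8.48 CPM. FOXP2, TFAP2C and DMRTA1, described above, were also lowest in pool 2. Pool 3 was the highest for 1 gene, RPS14P8, a pseudogene copy of RPS14 whose reads are uncertain, at 9.05, 7.02 and 16 CPM.

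With pool 1 left out, 234 of 15669 genes (1.49%) differed between pools 2 and 3, and 208 of these were among the 1158. With pool 2 left out 545 were differing, and with pool 3 left out 963. The biological coefficient of variation was 0.0994, 0.150 and 0.201 in the same order. Proliferation genes were mostly highest in pool 1 and lowest in pool 2, neuronal genes mostly lowest in pool 1, and mitochondrially encoded genes highest in pool 3 and lowest in pool 1, as given above. Their part in these differences was not tested.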

How the data were processed

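Bulk RNA-seq of 3 pools of WT organoids was used. The authors deposited raw counts of reads for each Ensembl gene, whole numbers used unchanged, and a second table whose Gene Symbol column gave the names. Per the submitters' processing notes the tools included HTSeq 0.6.1p1, STAR 2.4.0, Bowtie2 2.3.3.1, DESeq2 2.11.39 and Trimmomatic 0.36, with GRCh38 as the build and no role given for any; whether counting used strand is not stated there. Genes with near-identical copies or overlapping neighbours are therefore uncertain. That table also holds scores per sample, which from their values are raw counts scaled and rounded by the authors; they were used only to check the column labels, over genes of at least 50 raw counts in each pool, and those of replicates 1 and 3 follow the raw columns of 3 and 1. Pool numbers are those of the raw count columns.

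CPM used TMM factors computed over the 3 libraries with edgeR 4.0.16 in R 4.3.3. GENCODE 29 (57055 of the identifiers matched) gave gene types, GRCh38 coordinates and exon lengths, and RefSeq gave the microRNA sequences. Differing genes were found with scipy 1.17.1 by the chi-square test described above, counts under 3 being set to 3 in a ratio. The test was tried on simulated counts that held only counting error and set changes in pool 1. The real pools vary beyond counting error, so that trial does not show how the calls perform on them. The members and the 41 gene lists (842 genes) were chosen with earlier results of these data known, so list counts are descriptions beside the share over all genes. Named genes are the 20 with the highest CPM, the 10 highest nuclear genes per kb, the 10 highest long noncoding genes, the 20 with the highest ratio, up to 8 per pool that set it apart on each side, and list members at high level, differing or missing. Alternatives were other thresholds, scaling by library size or DESeq2 1.42.0 factors, and leaving out each pool. The knockout and mouse libraries were left out, and some genes of the lists are not reported here.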

Additional observations from a re-analysis of the deposited data

How the results depend on the processing

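The number of genes present stayed within 1.5 times of 14865 under all 8 alternatives, from 12912 at 1 CPM per kb to 16278 at a minimum of 0.5 CPM. The number differing depended on the pools and limits chosen: leaving out 1 pool at a time gave 234 to 963, a ratio of 1.5 gave 2742, a ratio of 3 gave 358, a mean of at least 5 CPM gave 411, and no filter on low counts gave 1745, against 1176 and 1159 with library size and DESeq2 scaling. With mitochondrially encoded genes left out, the 10 most abundant genes held 4.71% of counts and 1183 genes held 50%. The biological coefficient of variation was 0.143 for genes of at least 5 CPM and 0.0994 to 0.201 with 1 pool left out. With library size and DESeq2 scaling, the count of differing members stayed within 1.5 times in all 41 lists. Without pool 1 it moved further in 35 lists, without pool 2 in 19 and without pool 3 in 3, fewer samples being tested. No paired analysis was possible because only 1 group was used and no contrast was fitted. With 3 libraries of about equal depth, spread between pools is known only roughly, and levels under 0.197 CPM could not be told from 0.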

Other observations

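One short motif was searched, TAATCC or its reverse complement GGATTA, the letters that OTX factors are known to bind, and it was chosen after OTX2 and the choroid plexus genes had been seen to vary together. Among RefSeq promoters (GRCh38.p14), 1974 of 35116 windows of the 250 bases before a gene's start held it on either strand, or 5.62%. Of 20 hem and choroid plexus genes 15 had a window, and 0 of the 15 held it. Of 18 dorsal telencephalon genes 12 had a window, and 0 of the 12 held it. Sets of 15 and 12 windows are too small for a count of 0 to show a share below 5.62%. That share is over all windows, whereas each list gene counted once. Whether OTX factors act on these genes was not tested. These letters are a description of that window alone.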
